A study of Mus musculus with 7 samples.

Results

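The small RNAs held by a loop mutant of mouse Ago2, labelled GKT_GKGT, were compared with those held by wild-type (WT) Ago2. The comparison uses 2 of the 7 libraries of the series, 1 for each genotype, and covers all 1078 mature miRNA loci of the count table. Each mature name was counted once, by its highest locus, which left 950 miRNAs and 493 hairpins with a 5p and a 3p arm. Of these, 337 miRNAs and 402 hairpins had enough counts to be compared.

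Both proteins carried a Flag tag, were expressed in mouse embryonic stem cells of an Ago-null background, which make no Argonaute themselves, and were pulled down with an antibody to Flag before small-RNA sequencing. The series also holds PGKTP_AAAAA (the loop residues replaced by alanines), Q548A, R792A_C793A and K566A Ago2, and an empty control, again 1 library each. The title of the series asks whether Argonaute itself drives the asymmetry of small RNAs. The promoter, the level of each tagged protein and the number of cell clones behind each library are unstated in the sources at hand, and miRNA counts do not show the mutation, so the label could not be checked.

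Argonaute proteins take up a miRNA as a duplex of the 2 arms of its hairpin, keep 1 strand as guide and release the other. The MID domain of the protein grips the first base of the guide, and a short rigid loop in it, the nucleotide specificity loop, contacts that base. In human Ago2 this loop is known to hold U or A more tightly than C or G. By its label, GKT_GKGT lengthens the loop by a glycine. The first base of each miRNA was therefore read from its mature sequence, which was found in RefSeq (GRCm38.p6) for 291 of the 337 compared miRNAs. Both arms of 5 hairpins whose ratio of arms differed widely are shown, 5′ to 3′, with the first base in capitals.
miR-291a-5p: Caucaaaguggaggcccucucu
miR-291a-3p: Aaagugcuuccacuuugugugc
miR-30a-5p: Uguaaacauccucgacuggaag
miR-30a-3p: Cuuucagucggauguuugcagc
miR-16-5p: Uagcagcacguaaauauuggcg
miR-16-1-3p: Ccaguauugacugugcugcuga
miR-200b-5p: Caucuuacugggcagcauugga
miR-200b-3p: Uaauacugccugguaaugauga
miR-106b-5p: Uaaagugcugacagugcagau
miR-106b-3p: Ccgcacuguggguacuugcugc

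Closely related miRNAs offer a second view, because they share the seed (bases 2 to 8, which pair with targets) and differ in the first base. Members of 3 such families are shown with the seed in capitals.
let-7d-5p: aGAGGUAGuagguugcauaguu
let-7a-5p: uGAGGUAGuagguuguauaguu
let-7e-5p: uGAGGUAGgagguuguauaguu
miR-291a-3p: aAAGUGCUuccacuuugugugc
miR-294-3p: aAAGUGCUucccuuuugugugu
miR-302b-3p: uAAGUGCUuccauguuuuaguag
miR-148a-5p: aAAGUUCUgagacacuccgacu
miR-148b-5p: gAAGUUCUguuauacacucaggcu

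The GKT_GKGT library held 49657466 counts and the WT library 94842507, so that 1 count is worth 0.0201 and 0.0105 CPM in them, where CPM are counts scaled to a library total of 1000000. Every difference given here is between 2 libraries, with no replicate check and no p-value. Intervals of single miRNAs, single hairpins and their ratios cover the counting error alone, because each genotype has 1 library. No molecular identifiers were used, so amplified copies of a molecule count as separate reads. Intervals across hairpins describe the spread among hairpins, which are not replicates and in part share an arm. The miRNAs of embryonic stem cells were present in both libraries. The miR-290 cluster summed to 787811 CPM in GKT_GKGT and 777889 CPM in WT, and the miR-302 cluster with miR-367 to 493 CPM in GKT_GKGT and 535 CPM in WT. Each list of markers of other cell types summed to less than the miR-290 cluster but to more than the miR-302 cluster with miR-367. Their levels were similar in both libraries. They were 2007 CPM in GKT_GKGT and 2093 CPM in WT for 22 fibroblast or mesenchymal miRNAs (3 and 2 of them at 0). For 14 neural miRNAs they were 3765 and 3988 CPM (1 and 0 at 0). For 23 endothelial, blood, muscle, liver and skin miRNAs they were 817 and 923 CPM (7 and 9 at 0). The empty control had 33461 counts in all, 1484 times fewer than GKT_GKGT, and 65.6% of them were miR-292-5p. This A-first miRNA of the miR-290 cluster (chromosome 7, 3219201 to 3219222, mm9) took 70.5% of counts in GKT_GKGT and 63.7% in WT.

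Against WT, GKT_GKGT held more of the miRNAs that begin with C and less of many that begin with A. A miRNA was called higher or lower when the 95% interval of its CPM ratio lay wholly above 2-fold or below 0.5-fold. By that rule 37 of 337 miRNAs were higher (percent called 11.0) and 40 were lower (percent called 11.9), together 77 (percent called 22.8). There were 42 higher and 28 lower under median-of-ratios scaling and 45 higher and 24 lower with totals that leave out miR-292-5p. The 37 higher miRNAs were 27 C-first, 4 G-first, 3 U-first and 3 without a sequence. The 40 lower ones were 23 A-first, 11 U-first, 1 G-first and 5 without a sequence. No A-first miRNA was called higher and no C-first miRNA lower; the 2 other scalings gave 2 and 3 A-first miRNAs called higher and again no C-first miRNA called lower.

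The median log2 ratio over all 337 miRNAs was -0.29, and median-of-ratios scaling would raise each log2 ratio by 0.18. Relative to that median of all, the 56 C-first miRNAs had a median 1.16 higher, the 27 G-first miRNAs 0.41 higher, the 131 U-first miRNAs 0.11 lower and the 77 A-first miRNAs 0.32 lower. Called higher were 27 of 56 C-first (48.2%), 4 of 27 G-first (14.8%) and 3 of 131 U-first miRNAs (2.29%). Called lower were 23 of 77 A-first (29.9%), 11 of 131 U-first (8.40%) and 1 of 27 G-first miRNAs (3.70%).

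**Figure D1:**
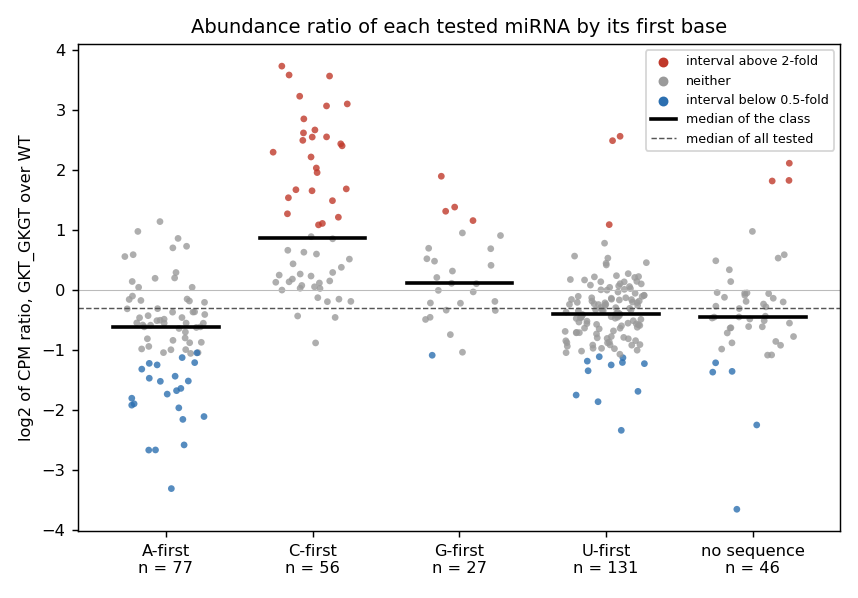
Log2 of the CPM ratio, GKT_GKGT over WT, for each of the 337 compared miRNAs (1 point each), grouped by first base; black bars are class medians and the dashed line is the median of all, -0.29. The C-first column is the one that reaches high values in number, with 27 of its 56 points called higher, whereas 23 of the 77 A-first points are called lower.

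The class medians were closer together for the bases after the first. When the same miRNAs were grouped by the base at position 2, 3 or 4, each of those 12 medians lay between 0.11 below and 0.09 above the median of all. The calls were less even: U at position 2 had 11 of 50 called higher (22%), of which 10 are the CU miRNAs given next, and A at position 4 had 3 of 64 called lower (4.69%). Within the C-first class the medians differed by the second base. CU miRNAs had a median log2 ratio of 1.67 with 10 of 14 called higher, CG 1.09 with 5 of 9, CC 0.67 with 4 of 9, and CA 0.25 with 8 of 24. The classes of A-first miRNAs by second base had medians of -0.55 (AU, 9 miRNAs) to -0.79 (AC, 15 miRNAs). C-first miRNAs were called higher on both arms, in 19 of 33 from the 3p arm and 8 of 23 from the 5p arm.

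Over all counts, miR-292-5p included, A-first miRNAs made up 79.6% in GKT_GKGT and 79.3% in WT, C-first 6.80% in GKT_GKGT and 4.15% in WT, G-first 3.76% in GKT_GKGT and 3.49% in WT, and U-first 7.17% in GKT_GKGT and 8.53% in WT. The A-first share was thus level over all counts and lower only when miR-292-5p, itself A-first, was left out. Without it, C-first miRNAs made up 23.1% of counts in GKT_GKGT and 11.4% in WT. A-first miRNAs made up 30.9% in GKT_GKGT and 43.0% in WT. By the same measure the A-first share was 31.9% in PGKTP_AAAAA, 38.9% in R792A_C793A, 45.5% in Q548A and 47.2% in K566A. The lower A-first share was thus not particular to GKT_GKGT. The G-first share was 12.7% in GKT_GKGT and 9.62% in WT, and the U-first share was 24.3% in GKT_GKGT and 23.5% in WT. Among the abundant A-first miRNAs in this sum, miR-294-3p had 8036 CPM in GKT_GKGT and 19962 CPM in WT, and miR-293-3p had 34581 CPM in GKT_GKGT and 53722 CPM in WT.

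Among C-first miRNAs, those that are otherwise the minor arm had a higher median ratio than those that are the major arm. The usual share of each arm was taken from the sum of the 4 other Ago2 libraries (K566A, Q548A, R792A_C793A and PGKTP_AAAAA). There were 105 C-first miRNAs that were the minor arm there, of which 19 had enough counts to be compared, a limit that the GKT_GKGT counts enter. Of these 19, 15 were called higher, all 19 had a log2 ratio above 0, and the median was 2.30. Of 37 that were the major arm, 12 were called higher, with a median of 0.38. When the limit of 10 CPM was set on the 4 other libraries alone, a choice made after seeing the data, 15 of 20 minor and 11 of 33 major C-first arms were called higher, with medians of 2.17 and 0.27. By share, the C-first median was 1.39 for 8 arms holding under 10% of their hairpin, 2.44 for 11 arms holding 10 to 50%, 1.27 for 11 arms holding 50 to 90%, and 0.14 for 25 arms holding over 90%. The U-first miRNAs had the opposite arrangement: 17 minor arms had a median of -0.91 and none lay above 0, whereas 67 arms holding over 90% had a median of -0.29, at the median of all. Across miRNAs, Spearman's rho between share and log2 ratio was -0.59 for 55 C-first and 0.34 for 114 U-first miRNAs. These points share 2 libraries and are a description. An arm that holds over 90% of its hairpin has little share left to gain from its partner, so ratio and share are not free of each other.

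**Figure D2:**
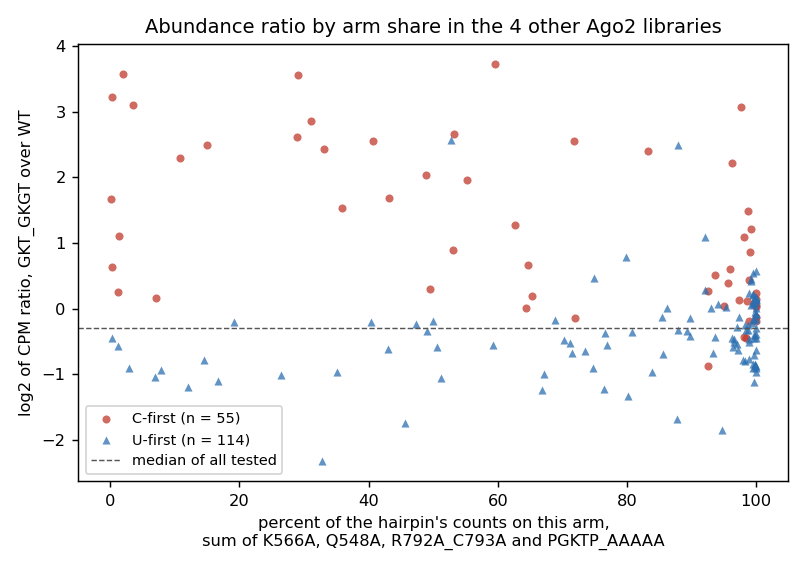
Log2 of the CPM ratio, GKT_GKGT over WT (vertical axis), against the percent of the hairpin's counts on that arm in the sum of the 4 other Ago2 libraries (horizontal axis); circles are C-first and triangles U-first miRNAs. C-first arms below 50% all lie above 0, U-first arms below 50% all lie below 0, and among arms over 90% the medians are 0.14 for C-first and -0.29 for U-first.

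Abundant C-first miRNAs were of both kinds. Of the 30 that averaged 100 CPM or more in GKT_GKGT and WT together, 17 were called higher, with a median log2 ratio of 1.17. Of the 25 C-first arms holding over 90% of their hairpin, 5 were called higher. Among these, miR-674-3p had 4170 CPM in GKT_GKGT and 1793 CPM in WT, and miR-195-3p had 576 CPM in GKT_GKGT and 68.6 CPM in WT. Others of this kind were close between the libraries. miR-99b-5p had 16174 CPM in GKT_GKGT and 14866 CPM in WT, and miR-191-5p had 8505 CPM in GKT_GKGT and 8041 CPM in WT. miR-25-3p had 1805 CPM in GKT_GKGT and 2469 CPM in WT, and miR-93-5p, of the same Mcm7 cluster, had 393 CPM in GKT_GKGT and 528 CPM in WT. None of these last 4 was called. The lowest C-first log2 ratio was that of miR-210-3p, at -0.88, which was not called either.

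The highest C-first log2 ratio was 3.73, for miR-200b-5p, with 950 CPM in GKT_GKGT and 71.4 CPM in WT; it is the major arm of its hairpin in the 4 other libraries (59.6%). Among the next highest were passenger strands, of which 3 are given here. Another, miR-744-3p, had a log2 ratio of 3.23, above the 3.10 of miR-431-3p. miR-150-3p, from the hairpin of a lymphocyte miRNA, had 128.8 CPM in GKT_GKGT and 10.7 CPM in WT, a log2 ratio of 3.59 (95% interval 3.49 to 3.68). miR-16-1-3p, from an exon of the non-coding Dleu2 transcript (GENCODE M21), had 135.0 CPM in GKT_GKGT and 11.4 CPM in WT, a log2 ratio of 3.57 (3.48 to 3.66). miR-431-3p, of the imprinted Dlk1-Dio3 cluster, had 156.5 CPM in GKT_GKGT and 18.2 CPM in WT. These 3 passenger strands are C-first and the minor arm of their hairpin in WT. The partner arms were not called: miR-150-5p had 343 CPM in GKT_GKGT and 487 CPM in WT, and miR-16-5p had 33.3 CPM in GKT_GKGT and 36.3 CPM in WT.

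The abundant miR-106b-3p, from an intron of Mcm7 (chromosome 5, 138606974 to 138606995, mm9), had 7990 CPM in GKT_GKGT and 1507 CPM in WT, a log2 ratio of 2.41. Its U-first partner miR-106b-5p, a member of the growth-promoting miR-17 seed family, was lower, with 28.5 CPM in GKT_GKGT and 61.2 CPM in WT. This U-first guide held 0.355% of the hairpin in GKT_GKGT and 3.91% in WT. In the 4 other mutants the 5p share was 3.68% in PGKTP_AAAAA, 29.5% in Q548A, 24.01% in R792A_C793A and 12.7% in K566A, so that GKT_GKGT was the lowest of the 6 Ago2 libraries.

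Some called miRNAs did not follow their class. The 3 U-first miRNAs called higher were miR-361-3p (2490 CPM in GKT_GKGT, 442 CPM in WT), miR-1188-3p (141.7 CPM in GKT_GKGT, 23.9 CPM in WT) and miR-18b-5p (620 CPM in GKT_GKGT, 290.3 CPM in WT). miR-361 lies in an intron of Chm, and both of its arms begin with U. The single G-first miRNA called lower was miR-1981-5p, at 629 CPM in GKT_GKGT and 1332 CPM in WT. It was not called under either other scaling. Of the 77 A-first miRNAs 13 had a log2 ratio above 0, the highest being miR-3544-3p at 1.14, whose locus overlaps that of miR-337-5p, so that the assignment of its reads is uncertain.

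Arm use was then compared within hairpins, where library size cancels. The odds of the minor arm (the arm with fewer counts over the 6 Ago2 libraries) were called higher in GKT_GKGT in 70 of 402 hairpins (percent called 17.4) and lower in 48 (percent called 11.9), 118 together (percent called 29.4). Where both arms began with the same base, 8 of 62 hairpins were called (12.9%). Where the first bases differed, 90 of 194 were called (46.4%), namely 57 of 94 with 1 C-first arm (60.6%) and 33 of 100 with no C-first arm (33.0%).

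Against each kind of partner the balance moved towards the C-first arm in nearly all hairpins. Set over a U-first partner, the C-first arm had a higher log2 ratio in GKT_GKGT than in WT in 53 of 54 hairpins, with a median change of 2.45 (order-statistic 95% interval across hairpins 1.98 to 2.91) and 37 called. For C-first over A-first arms it was higher in 26 of 27 hairpins, with a median of 1.86 (1.10 to 3.11) and 17 called. For C-first over G-first arms it was higher in 12 of 13, with a median of 1.16 (0.33 to 1.99) and 2 called. The exceptions were miR-128-1, whose C-first arm held 0.0517% of counts in GKT_GKGT and 0.0828% in WT, miR-326, with 8 counts on the G-first arm in GKT_GKGT and 9 in WT, and miR-25. In miR-25 the C-first 3p arm held 92.4% in GKT_GKGT and 96.4% in WT, a called change against its class. Some hairpins share an arm with a paralog; with hairpins whose arms come from 1 locus each, the medians were 2.52 over U and 1.86 over A. With at least 20 counts on each arm in both libraries, 40 of 41 hairpins moved towards C over U and 23 of 24 towards C over A.

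For G-first arms the balance moved the same way, with smaller medians over U. The log2 ratio of G-first to U-first arms was higher in 27 of 33 hairpins, with a median change of 1.39 (0.94 to 1.66), and 13 were called higher and 2 lower. Over A-first arms it was higher in 10 of 12, with a median of 1.52 (0.96 to 2.63) and 7 called. That interval includes 0 with at least 20 counts on each arm (1.27, -0.11 to 2.63, 5 called) and with arms from 1 locus each (1.40, -0.11 to 3.06, 6 called). The 5p arm of miR-434 held 79.0% of counts in GKT_GKGT and 59.0% in WT, the 3p arm of miR-330 91.8% in GKT_GKGT and 63.2% in WT, and the 3p arm of miR-211 23.7% in GKT_GKGT and 2.43% in WT. The partners of these 3 G-first arms begin with U. The 6 hairpins that moved the other way over U were miR-182, miR-205, miR-299b, miR-455, miR-499 and miR-3074-2; of these miR-3074-2 and miR-299b were called, and both overlap another locus. Over A-first arms the G-first arm did not gain in miR-291b (99.2% in both libraries) or miR-679.

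Between A-first and U-first arms no direction was seen. Of 55 such hairpins 28 moved towards the A-first arm and 27 towards the U-first arm, with a median change of 0.03 (-0.66 to 0.40), and 5 and 6 were called. miR-423, with 444454 counts in GKT_GKGT, gave the U-first 5p arm 58.1% of counts in GKT_GKGT and 36.6% in WT. This 5p share was also above that of WT in PGKTP_AAAAA (63.5%), Q548A (69.5%), R792A_C793A (81.6%) and K566A (87.2%). GKT_GKGT lay the closest to WT. miR-380 gave the U-first 3p arm 60.4% in GKT_GKGT and 49.5% in WT, which was not called.

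**Figure D3:**
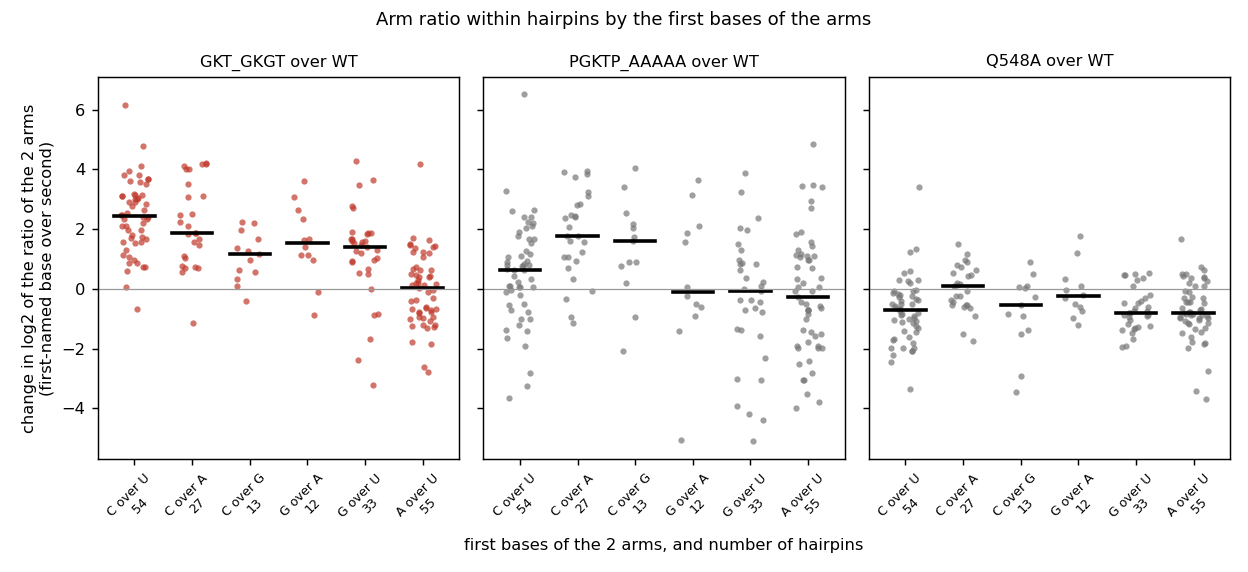
Change in the log2 ratio of the 2 arms of a hairpin (vertical axis) by the first bases of the arms (horizontal axis, with the number of hairpins), for GKT_GKGT over WT at the left and for PGKTP_AAAAA and Q548A over the same WT library; bars are medians. In GKT_GKGT the 5 classes with C or G on top have medians of 1.16 to 2.45 and A over U is at 0.03, whereas in Q548A C over U has a median of -0.70.

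Among 222 hairpins with at least 1000 counts in each library, 48 had the minor-arm odds called higher and 37 lower, and in 19 the majority arm differed between the libraries. For 14 of these both first bases were known: in 6 the majority passed to a C-first arm and in none from one. These 6 were miR-291a, miR-16-1, miR-30a, miR-30c-2, miR-200a and miR-667. The 13 others were miR-18a, miR-23b, miR-124, miR-136, miR-140, miR-378, miR-380, miR-423, miR-465b, miR-465c, miR-485, miR-1188 and miR-3068. The change in odds was not called in miR-23b, miR-380 or miR-485. miR-465b and miR-465c use the same 3p counts and are not independent. In miR-423 and miR-18a the majority arm differed from WT in every other mutant too. The 5p arm of miR-18a held 68.8% in GKT_GKGT and 48.9% in WT. It held 79.1% in PGKTP_AAAAA, 76.6% in Q548A, 78.0% in R792A_C793A and 90.4% in K566A. The counts of miR-136 are uncertain, since its locus overlaps another.

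The best measured of these hairpins was miR-291a of the miR-290 cluster, with 780177 counts in GKT_GKGT and 1091969 in WT. Its C-first 5p arm (chromosome 7, 3218933 to 3218954, mm9, outside any annotated gene on its strand) had 14687 CPM in GKT_GKGT and 5045 CPM in WT. Its A-first 3p arm, of the seed family known to promote cell-cycle entry in stem cells, had 1024 CPM in GKT_GKGT and 6469 CPM in WT. Both arms were called, in opposite directions. The 5p share was 70.3% in PGKTP_AAAAA, 39.996% in Q548A, 23.4% in R792A_C793A and 16.2% in K566A.

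In miR-16-1 the C-first 3p arm held 80.2% of counts in GKT_GKGT and 23.9% in WT, where the 5p counts include those of a second miR-16 locus. In miR-15b, its relative in an intron of Smc4, the C-first 3p arm held 94.8% in GKT_GKGT and 68.1% in WT. The miR-15/16 family represses cyclins and other cell-cycle genes through its U-first 5p arms, which share a seed. miR-15b-5p itself had 14.1 CPM in GKT_GKGT and 29.5 CPM in WT, which was not called.

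Hairpins of the miR-30 family, whose 5p guides begin with U, followed the same pattern. The C-first 3p arm held 86.9% of miR-30a in GKT_GKGT and 42.7% in WT, 92.2% of miR-30e in GKT_GKGT and 59.0% in WT, and 69.7% of miR-30c-2 in GKT_GKGT and 36.9% in WT. miR-30c-1, which has the same 5p arm as miR-30c-2, had 31.6% on its C-first 3p arm in GKT_GKGT and 6.27% in WT. The 3p arms of miR-30a and miR-30e share a seed and differ in few bases, and reads could have been split between them by the authors' counting.

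In the miR-200 family, which keeps epithelial cells from turning mesenchymal, the C-first arm is the 5p arm. It held 95.3% of miR-200b in GKT_GKGT and 57.1% in WT, and 78.0% of miR-200a in GKT_GKGT and 29.1% in WT. Both hairpins lie in an intron of Ttll10 (GENCODE M21). The U-first 3p arms that carry the known activity were not called: miR-200b-3p had 46.5 CPM in GKT_GKGT and 53.6 CPM in WT, and miR-200a-3p had 99.1 CPM in GKT_GKGT and 146 CPM in WT.

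miR-667 and miR-431 are hairpins of the Dlk1-Dio3 cluster with a C-first and a U-first arm. The C-first 5p arm of miR-667 held 78.7% of counts in GKT_GKGT and 22.3% in WT, and the C-first 3p arm of miR-431 held 37.1% in GKT_GKGT and 4.58% in WT. miR-744, in an intron of Map2k4, gave 2195 counts on its C-first 3p arm in GKT_GKGT and 446 in WT, beside 159875 and 558760 on its U-first 5p arm. The C-first arm of miR-744 thus remained at 1.35% of the hairpin in GKT_GKGT, against 0.0798% in WT, although the odds changed by 4.10 on the log2 scale. A large change in odds did not mean a large share where the C-first arm started low.

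**Figure D4:**
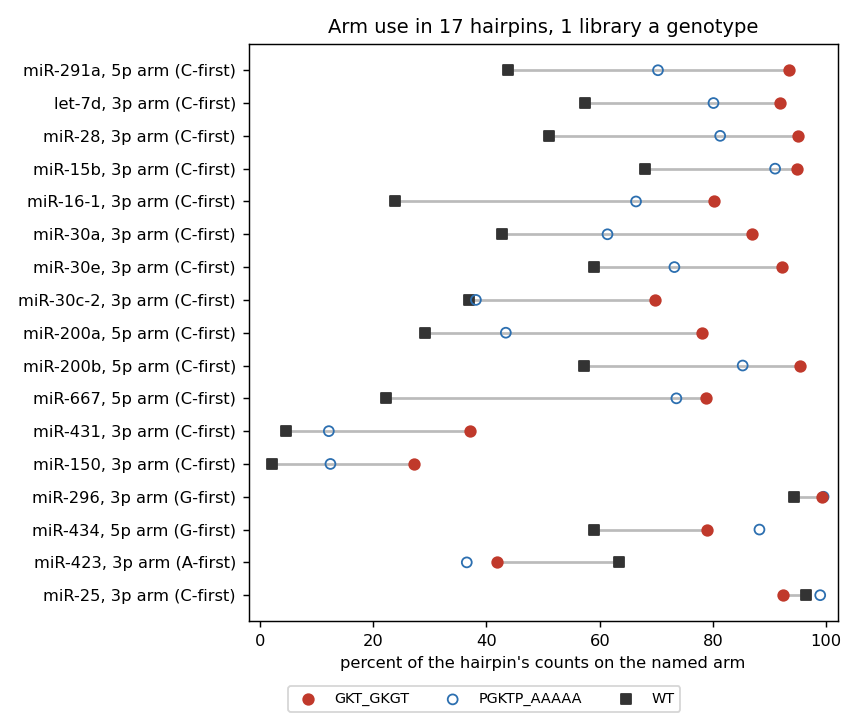
Percent of a hairpin's counts on the named arm (horizontal axis) in GKT_GKGT (filled circles), PGKTP_AAAAA (open circles) and WT (squares) for 17 hairpins, with 1 library for each genotype. In the 13 hairpins from miR-291a to miR-150 at the top the C-first arm is higher in GKT_GKGT than in WT; miR-25 at the bottom is the C-first arm that is lower.

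Some changes did not follow the first base. Among the 8 called hairpins whose arms begin with the same base was miR-361, with 99.0% on the 3p arm in GKT_GKGT and 88.1% in WT. Another was miR-1188, with 74.2% on the 3p arm in GKT_GKGT and 29.2% in WT. The 3p share of miR-1188 was also above that of WT in PGKTP_AAAAA (68.3%), Q548A (52.6%), R792A_C793A (49.9%) and K566A (44.2%). In the miR-290 hairpin, with A on both arms, the 5p arm held 87.8% in GKT_GKGT and 96.3% in WT. Across 256 hairpins the change in the 5p-to-3p log2 ratio had a Spearman rho of 0.28 with the difference in GC content between the arms; rho was 0.48 in the 94 hairpins with 1 C-first arm and -0.08 in the 62 with the same first base. The first base is itself part of the GC content, and length gave 0.03.

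Seed families allow the first base to be compared between separate genes. In the let-7 family, guides that rise as cells differentiate, let-7d-5p is A-first and was called lower, with 26.5 CPM in GKT_GKGT and 92.1 CPM in WT. The 7 U-first members had log2 ratios between -0.86 and 0.28 and none was called. The ratio of let-7d-5p to let-7a-5p was 0.327 in GKT_GKGT and 0.965 in WT, a log2 change of -1.56 (95% interval -1.66 to -1.46), from which library size cancels. Members of the family differ in few bases, so reads could have been split between them. The let-7d-3p arm, C-first, was higher, with 300.2 CPM in GKT_GKGT and 124.1 CPM in WT.

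The seed AAGUGCU, which defines the pluripotency guides of the miR-290 and miR-302 clusters, also has members of both kinds. The A-first miR-291a-3p, miR-294-3p and miR-295-3p were all called lower, at log2 ratios of -2.66, -1.31 and -1.22. The U-first miR-302b-3p had 405.0 CPM in GKT_GKGT and 402.8 CPM in WT, and miR-302d-3p had a log2 ratio of -0.77; neither was called. The 3 A-first members share a cluster as well as a first base. Summed over the 5 members, 10863 CPM of this seed were bound in GKT_GKGT and 30047 CPM in WT.

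The 5p arms of miR-148a and miR-148b separated furthest among the 7 seed families with members of different first base. The A-first miR-148a-5p was lower, with 52.5 CPM in GKT_GKGT and 194.5 CPM in WT, whereas the G-first miR-148b-5p was higher, with 58.8 CPM in GKT_GKGT and 22.5 CPM in WT. Their ratio was 0.892 in GKT_GKGT and 8.65 in WT, a log2 change of -3.28 (-3.38 to -3.18). The U-first 3p guides of both hairpins, which share a seed, were not called, with log2 ratios of -0.59 for miR-148a-3p and -0.44 for miR-148b-3p.

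The 5p arms miR-291a-5p (C-first) and miR-291b-5p (G-first) share a seed and were both higher, with log2 ratios of 1.54 and 1.32; they are near-identical, so reads could have been split between them. Of the 5 members of the miR-25 and miR-92 seed family the A-first miR-363-3p was called lower, with 712 CPM in GKT_GKGT and 1466 CPM in WT, and the C-first and U-first members were not called. In the miR-17 seed family the 4 C-first members (miR-17-5p, miR-20b-5p, miR-93-5p and miR-106a-5p) had log2 ratios between -0.43 and 0.24. Its U-first member miR-106b-5p was called lower at -1.11, and miR-20a-5p, also U-first, had a log2 ratio of 0.57. In this family the members did not order by first base. In the miR-25 and miR-92 family the C-first miR-25-3p, at -0.45, lay below the U-first miR-92b-3p at 0.00 and miR-32-5p at -0.25. The miR-15 seed family had 3 compared 5p members, the U-first miR-15b-5p and miR-16-5p and the C-first miR-497-5p, with log2 ratios of -1.06, -0.12 and -0.12, and none was called.

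**Figure D5:**
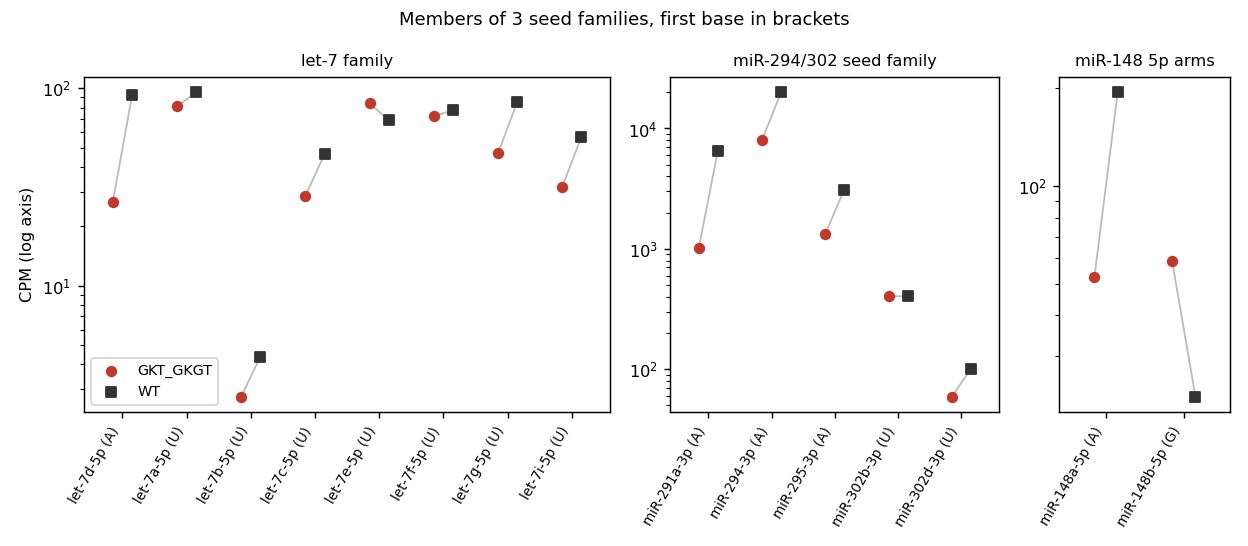
CPM (log axis) of members of 3 seed families in GKT_GKGT (circles) and WT (squares), with the first base in brackets. The A-first let-7d-5p, miR-291a-3p, miR-294-3p, miR-295-3p and miR-148a-5p lie lower in GKT_GKGT, and the G-first miR-148b-5p lies higher.

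By miRNA family, the counts called higher and lower can be read against 11.0% and 11.9% over all miRNAs. In the miR-15/16 family 3 of 6 compared members were higher and none lower, in the miR-30 family 4 of 10 and none, and in the miR-200 family 2 of 6 and none; the members called higher in these 3 families were all C-first. The other families had both directions or few calls. In the miR-290 cluster 2 of 13 were higher and 6 lower, with a median log2 ratio of -0.99. The miR-17-92 cluster with its paralogs had 3 of 24 higher and 4 lower, the Dlk1-Dio3 cluster 5 of 61 and 10, the miR-130, miR-301, miR-148 and miR-152 families together 1 of 11 and 3, and let-7 with miR-98 1 of 9 and 1. Several families had a single call. The miR-10 and miR-196 family had 1 of 4 higher (miR-196a-1-3p, C-first), the families of miR-99, miR-100 and miR-125 1 of 5 (miR-99b-3p, C-first) and the clusters of miR-23, miR-27 and miR-24 1 of 8 (miR-24-2-5p, G-first, which overlaps another locus), with none lower. Of the Sfmbt2 cluster 1 of 14, and of miRNAs made without Dicer or Drosha 1 of 6, was lower and none higher. No compared member was called in miR-302 with miR-367 (3), miR-183 with miR-96 and miR-182 (5), miR-181 (3), miR-34 with miR-449 (2) or miR-191 with miR-425, miR-103 and miR-107 (5). Of the marker lists, 1 of 11 fibroblast or mesenchymal miRNAs was higher (miR-196a-1-3p) and 1 lower (miR-152-5p, U-first), 1 of 7 endothelial, blood, muscle, liver and skin miRNAs was higher (miR-150-3p), and none of 4 neural ones was called.

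PGKTP_AAAAA changes the same loop. Each comparison with WT uses the same WT library, so values are given side by side. The median change of C-first over A-first arms was 1.86 in GKT_GKGT and 1.77 in PGKTP_AAAAA. For C-first over U-first arms it was 2.45 in GKT_GKGT and 0.65 in PGKTP_AAAAA, for G-first over U-first arms 1.39 and -0.08, and for G-first over A-first arms 1.52 and -0.09. In Q548A these 4 medians were 0.10, -0.70, -0.82 and -0.25, in R792A_C793A 0.59, 0.05, 0.33 and -0.45, and in K566A 0.40, 0.02, -0.30 and -0.81. By the median alone, C-first over G-first arms did not set GKT_GKGT apart: it was 1.16 in GKT_GKGT, 1.61 in PGKTP_AAAAA, -0.55 in Q548A, 1.67 in R792A_C793A and 1.71 in K566A. The ratio was higher than in WT in 12 of 13 hairpins in GKT_GKGT, 11 in PGKTP_AAAAA and 5 in Q548A. It was higher in 8 each in R792A_C793A and K566A, with intervals that include 0 (-2.13 to 2.66 and -2.14 to 4.56).

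GKT_GKGT was also set directly against PGKTP_AAAAA, with no WT counts in the ratio. The C-first over U-first ratio was higher in GKT_GKGT in 51 of 54 hairpins, with a median difference of 2.01 (1.59 to 2.23). The hairpins, and the limit of at least 20 counts, were still chosen on the GKT_GKGT and WT counts. They set no minimum on PGKTP_AAAAA alone. The G-first over U-first ratio was higher in 27 of 33, with a median of 1.48 (0.48 to 1.96), or 0.82 with a pseudocount of 5 and 0.94 with at least 20 counts on each arm. The C-first over A-first ratio differed by a median of 0.10 (-0.62 to 1.06), an interval that includes 0, or 0.41 with a pseudocount of 5 and 0.51 with at least 20 counts on each arm. These intervals describe the spread across hairpins, which are not replicates. The intervals of the 2 remaining classes include 0 as well, with a median of 1.12 (-0.57 to 2.81; 8 of 12 higher) for G-first over A-first arms and -0.27 (-1.76 to 0.62; 5 of 13 higher) for C-first over G-first arms. In abundance, the 27 G-first miRNAs lay 1.18 above the median of all in GKT_GKGT over PGKTP_AAAAA, and 18 were called higher (66.7%, where percent called is 25.5 over all miRNAs) and none lower (percent called 5.93). The C-first median lay 0.69 above it, with 26 of 56 higher and 3 lower, the A-first median 0.07 above it and the U-first median 0.17 below it. Over the shared WT library, the G-first median lay 1.10 below the median of all in PGKTP_AAAAA and 0.41 above it in GKT_GKGT. The A-first median lay 0.71 below it in PGKTP_AAAAA and 0.32 below it in GKT_GKGT. The C-first median lay 0.81 above it in PGKTP_AAAAA and 1.16 above it in GKT_GKGT.

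Single hairpins varied around these medians. The C-first 3p arm of miR-30c-2 held 69.7% of counts in GKT_GKGT, 38.1% in PGKTP_AAAAA and 36.9% in WT, against a U-first partner. The C-first 5p arm of miR-200a held 78.0% in GKT_GKGT, 43.4% in PGKTP_AAAAA and 29.1% in WT. In 2 other hairpins with a U-first partner PGKTP_AAAAA was also far from WT. The C-first 5p arm of miR-667 held 78.7% in GKT_GKGT, 73.5% in PGKTP_AAAAA and 22.3% in WT. The C-first 3p arm of miR-16-1 held 80.2% in GKT_GKGT, 66.4% in PGKTP_AAAAA and 23.9% in WT. In K566A these arms of miR-30c-2, miR-200a, miR-667 and miR-16-1 held 70.6%, 62.1%, 91.7% and 39.2%. For miR-30c-2 and miR-667 the K566A share was thus above that of GKT_GKGT. In Q548A the same arms held 33.5%, 18.7%, 21.6% and 13.1%, and in R792A_C793A 39.1%, 42.9%, 42.9% and 20.7%. Against an A-first partner both loop mutants lay on the same side of WT in miR-296, where the G-first 3p arm held 99.3% in GKT_GKGT, 99.5% in PGKTP_AAAAA and 94.3% in WT. Against a U-first partner in miR-148b, the G-first 5p arm held 22.6% in GKT_GKGT, 5.94% in PGKTP_AAAAA and 7.61% in WT.

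Against Q548A, GKT_GKGT was higher by a median of 3.17 for C-first over U-first arms (53 of 54 hairpins), 1.91 for C-first over A-first arms (26 of 27) and 2.16 for G-first over U-first arms (28 of 33). Against R792A_C793A the medians were 2.27 (48 of 54), 1.59 (21 of 27) and 0.81 (22 of 33), the last with an interval of -0.06 to 1.58. Against K566A, the shallowest of the Ago2 libraries at 14914048 counts, they were 2.01 (43 of 54), 1.26 (21 of 27) and 0.95 (19 of 33, interval -0.40 to 3.27), and the last was 0.29 with at least 20 counts on each arm. For G-first over A-first arms the medians were 1.74 against Q548A (10 of 12), 1.58 against R792A_C793A (10 of 12) and 2.41 against K566A (9 of 12), and each of these 3 intervals includes 0 with at least 20 counts on each arm. For C-first over G-first arms they were 1.42 (12 of 13), -0.97 (6 of 13) and -1.14 (5 of 13). The limit of at least 20 counts on each arm was again set on the GKT_GKGT and WT libraries, not on the mutant compared.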

How the data were processed

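The deposited table holds raw counts of reads per mature miRNA locus, not normalized by the authors, for 7 libraries. The submitters' processing notes name CASAVA 1.8.2, TopHat2 2.0.9 and mouse build mm9. The counting program, use of strand, miRNA annotation release and treatment of multiply matching reads were not stated. Reads were taken as counted at each locus, so the highest locus stood for each mature name. Names with equal counts (within 1% or 3 counts, sum 200 or more) were merged, which removed 9.

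CPM were computed on library totals. A miRNA entered if its mean over the 6 Ago2 libraries reached 10 CPM, and a hairpin (arms of 1 name with starts within 150 nt) with a sum of at least 100. Ratios carry exact conditional (Clopper-Pearson) 95% intervals, and arm odds exact conditional ones (Woolf's where all 4 counts reach 500), called when wholly past 2-fold or 0.5-fold. Log2 ratios of the arms within a hairpin use a pseudocount of 0.5, and log2 ratios of abundance use none. Median changes by first base leave out hairpins with an arm of 3 counts or fewer in both the GKT_GKGT and the WT library. In every comparison, this limit and that of at least 20 counts on each arm read only the GKT_GKGT and WT counts. The limit that a count of 0 allows, 3 counts, is 0.0604 CPM in GKT_GKGT and 0.0316 CPM in WT. No compared miRNA was at 0 in either.

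First bases came from RefSeq mature sequences by exact name, or for 14 miRNAs by the later name with an added letter a. Positions are those of the deposited table (mm9); host genes come by name only from GENCODE M21. The 11 compared miRNAs that overlap another locus are uncertain. Named were the 12 most abundant miRNAs in WT, the 15 largest rises and 15 largest falls of at least 100 CPM, the 6 most abundant of each list and base class, the 12 largest hairpin changes each way, majority switches and exceptions; miR-744, miR-434, miR-330 and miR-211 show their class. The members, lists and sequence classes were chosen with earlier results of these data known. The scripts were tested on simulated data. Python 3.11.15, pandas 2.3.3, NumPy 2.4.6, SciPy 1.17.1 and matplotlib 3.10.9 were used.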

Additional observations from a re-analysis of the deposited data

How the results depend on the processing

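The 37 miRNAs called higher became 24 with a filter of 50 CPM and 75 with no filter. The 40 called lower became 24 with totals without miR-292-5p, 22 with the 50 CPM filter, 72 with no filter, 92 at 1.5-fold and 17 at 3-fold. With median-of-ratios scaling and with totals without miR-292-5p, both chosen for the first-base counts after seeing the data, A-first miRNAs called higher were 2 and 3 in place of 0, G-first called lower 0 and 0 in place of 1, and U-first called lower 6 and 4 in place of 11. Of named miRNAs, 4 and 6 lost their call under these scalings. The cause was not tested. No other main count of GKT_GKGT against WT moved past 1.5 times under the alternatives run, and no main median left its interval or range. The interval of G-first over A-first arms and direct medians against PGKTP_AAAAA and K566A moved as given beside their values. Medians of other mutants moved further. With at least 20 counts on each arm, G-first over U-first arms in K566A over WT went from -0.30 to 0.21. C-first over U-first arms in R792A_C793A over WT went from 0.05 to -0.05. Directly, C-first over G-first arms went from -0.97 to -0.27 against R792A_C793A and from -0.27 to -0.75 against PGKTP_AAAAA. The interval of A-first over U-first arms includes 0, and its median ran from -0.03 to 0.20. No paired analysis was possible because each genotype has 1 library, and for the same reason no replicate could be left out. With 1 library a side, differences between cultures or immunoprecipitations cannot be told apart from the mutation. The empty control is too shallow to set a background for single miRNAs: its limit for a count of 0 is 89.7 CPM.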
